A study of Rattus norvegicus with 11 samples.

Results

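Ganglia ligated at the spinal nerve and given UNC0638 (SNL plus UNC0638, 3 libraries) were compared with sham operation (Sham, 4 libraries) by RNA sequencing of the dorsal root ganglion of rats (strain Sprague-Dawley), to describe which genes stood away from sham in ligated ganglia that had received the inhibitor. All genes with a deposited value of at least 10 in at least 3 of these 7 libraries were taken, which gave 11865 of the 16811 genes of the table. Of these, 11863 were tested. The genes Pcdhgc5, listed at 0 in all 3 SNL plus UNC0638 libraries, and Sdc2, listed at 0 in all 4 libraries of ligation alone, were dropped once their values had been seen. Per the labels, the Sham ganglia were right-sided and the ganglia of both ligated groups were left-sided. The series has no group that received UNC0638 without ligation, so that ligation, side and inhibitor cannot be told apart in this comparison. A further group, ligation without the inhibitor (SNL, 4 libraries), shares the spread estimate of the fit. Its values are given beside those of the comparison for reference, and it would be set against the same Sham libraries.

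The dorsal root ganglion holds the cell bodies of sensory neurons together with the satellite glia around them, Schwann cells, blood vessels, connective tissue and resident macrophages. Tight ligation of a spinal nerve damages the axons of these neurons and is a widely used rat model of neuropathic pain: injured neurons switch on regeneration genes such as Atf3 and lower many channel and receptor genes, and macrophages and lymphocytes enter the ganglion. UNC0638 inhibits G9a (gene Ehmt2) and GLP (gene Ehmt1), a pair of enzymes that place the H3K9 methyl mark of silenced genes on histone H3.

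The values are counts scaled to a common library size (scaled counts), with totals of 9450045 to 11347920 in the 7 libraries. The step between low values put the reads behind them at 6127897 to 14179208 per library. Replicates are named by the number in the labels, and values of a gene are given in the order of these numbers. Nothing in the labels says that replicates were separate animals, so that p-values measure the spread between these libraries, which may be technical. Fold changes are differences of log2(scaled count + 1), which understate the change of low genes, and a gene was called higher or lower where its limma p, adjusted by Benjamini-Hochberg over all tested genes, was under 0.05.

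A pair of libraries stood apart from their groups. SNL plus UNC0638 replicate 1 had high values of skeletal muscle genes: the muscle actin gene Acta1 was at 12732 there and at 65.0 and 56.8 in the other two, and the mean log2 level of 14 tested muscle genes was 6.12 above Sham, against 0.20 and -0.19. Genes of axon injury stood 0.10 above Sham in this replicate, against 0.67 and 0.97. Sham replicate 3 lay towards the ligated libraries, with a macrophage list level 0.78 above the Sham mean and a level of oxidative phosphorylation genes of -0.36. On the first principal component over these 7 libraries, with 73.5% of the variance, it was at -14.8 where the other Sham libraries were at -57.1 to -49.0, and SNL plus UNC0638 replicate 1 was at 36.4 where replicates 2 and 3 were at 73.4 and 68.1. Where leaving out either library moves a list's larger count by over 1.5 times, the count without it is given. A fit with a term that sets every SNL plus UNC0638 library apart together with replicate 3 of Sham and of SNL, a split known from earlier work on these data, is called the fit with a library term. It is quoted for some of the lists whose counts it changes, and a list without it may also have changed. The sensory neuron markers Tubb3 and Prph were among the abundant genes of all 7 libraries, at 31420 to 63866 and 21665 to 40392.

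A narrow majority of tested genes differed from sham: 6122 of 11863 genes were called (51.6%), 2983 higher (25.1%) and 3139 lower (26.5%). Large changes were mostly upward. Of the called genes, 1696 were at least 2-fold higher (14.3% of those tested) and 624 at least 2-fold lower (5.26%), and the libraries of both groups did not overlap for 5764 genes (48.6%). The median log2 fold change over all tested genes was -0.03. Without SNL plus UNC0638 replicate 1 the genes at least 2-fold lower numbered 979, and without that library and Sham replicate 3 together, 1190. A test on estimated reads (limma-voom) moved the median of all genes to 0.16 and called 1852 genes lower, so that 66.6% of its calls were higher against 48.7% in the fit used here.

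**Figure D1:**
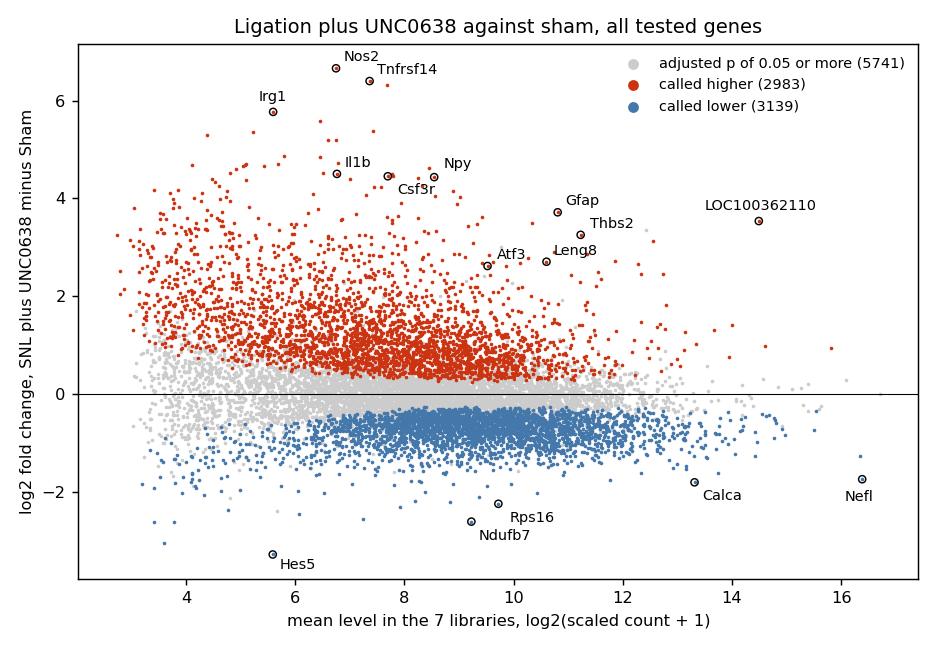
Log2 fold change of SNL plus UNC0638 minus Sham (vertical axis) against the mean log2(scaled count + 1) over the 7 libraries (horizontal axis) for the 11863 tested genes, with called genes coloured and some genes of the text labelled. The cloud reaches further upward, with 1696 called genes at least 2-fold above Sham and 624 at least 2-fold below.

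The genes furthest above sham included several that activated macrophages and other leukocytes express. Nos2, the inducible nitric oxide synthase of activated macrophages, was at 0, 2.27, 3.12 and 0.769 in the Sham libraries and at 131, 398 and 210.3 in the SNL plus UNC0638 libraries (log2 fold change 6.66), and at 0.825 ± 0.620 (SD, n = 4) after ligation alone. Tnfrsf14, a lymphocyte and myeloid receptor of the TNF receptor family, went from 1.39, 6.82, 6.23 and 1.54 to 244, 402 and 482 (log2 fold change 6.40). Irg1, which makes the macrophage metabolite itaconate, was at 1.39, 0, 1.56 and 0.769 and at 55.6, 178 and 94.2 (log2 fold change 5.77). Of the 12 highest genes 7, these 3 included, were under 10 in every Sham library and entered the test only because all treated libraries reached 10, so that their separation from Sham was set by the filter and they are described without a test. The other 9 of the 12 highest were the inhibitory leukocyte receptor gene Lilrb4 (5.37), the interleukin-1 decoy receptor gene Il1r2 (5.35), the myeloid hexokinase gene Hk3 (5.19), the leukocyte protease inhibitor gene Slpi (4.72), the inhibitor gene Serpina3n (4.71), Dhrs9 (4.70), the anchoring collagen gene Col7a1 (6.32), Stac2 (5.20) and the transglutaminase gene Tgm1 (4.84). Stac2 was much lower in replicate 1 than in the others (19.7, 323 and 312), and its log2 fold change without that replicate was 6.52. No test is given here for any of these 9 genes.

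Among the 12 lowest, Hes5 (-3.28), Ndufb7 (-2.60), Cox17 (-2.31), Atp5j2 (-2.01), Mrps10 (-2.03), Rps16 (-2.24) and Hba1 (-2.55) belong to groups described further on. Calb2, a calcium-binding protein gene of some large sensory neurons, was at 519, 875, 774 and 553 in Sham and 243, 105 and 116 in SNL plus UNC0638 (log2 fold change -2.20, SE 0.85, adjusted p = 0.047). Ca2, a carbonic anhydrase gene, was at 730.4, 1227, 974 and 920.0 and 417, 150.1 and 170.3 (log2 fold change -2.10, SE 0.50, adjusted p = 0.00477). The remaining 3 were the link protein gene Hapln1 (-2.18), the lipase gene Pnlip (-2.45) and the retinoid-binding protein gene Rlbp1 (-2.37).

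Il1b, a main innate cytokine gene, was higher. Of 15 tested members of the list of innate cytokines and chemokines (28 in the table), 14 rose, with a median log2 fold change of 3.60 against -0.03 for all genes. As 7 of the 15 were under 10 in every Sham library and entered the test only through the treated group, this count describes those members and supports nothing. Il1b, the gene of interleukin-1 beta, was at 11.1, 6.82, 12.5 and 8.45 in Sham and at 206, 280.0 and 228 in SNL plus UNC0638 (log2 fold change 4.50, SE 0.29, adjusted p = 2.29e-05), with 18.8 to 39.4 after ligation alone. Tnf, the gene of tumour necrosis factor, was at 4.18, 2.28, 4.68 and 3.85 and at 36.8, 68.1 and 47.7. For Il1b each SNL plus UNC0638 library lay above every Sham library, while Tnf is one of the 7 and is given without a test. A change in the number of cells of a type and a change in RNA per cell cannot be told apart in such bulk tissue. This holds in both directions, for these and all later cell marker genes.

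Promoters of 3 chemokine genes of this list are shown because they hold a motif of the inflammatory transcription factor NF-kB, which is known to induce many cytokine genes. The 250 bases before the start site were taken from the RefSeq assembly GRCr8, a later build than the rn4 used by the authors. Only the strand running 5′ to 3′ towards the start site was searched for an NF-kB consensus. Matches on the other strand were not counted. The consensus was found on that strand in 4 of the 13 list members with a promoter in the table (30.8%). The shares were 5.78% of the 8782 tested genes with one and 4.46% of all 27457 promoters. A match is a description of these letters and says nothing about binding. The matched genes were Cxcl1, Cxcl10, Cxcl11 and the cytokine-signalling suppressor gene Socs3, of which 3 are printed 5′ to 3′ with the motif in capitals (Cxcl1, chr14:17479322-17479571, minus strand, Cxcl10, chr14:15988816-15989065, plus strand, and Cxcl11, chr14:15973478-15973727, plus strand, log2 fold changes 4.60, 2.09 and 3.60).
Cxcl1: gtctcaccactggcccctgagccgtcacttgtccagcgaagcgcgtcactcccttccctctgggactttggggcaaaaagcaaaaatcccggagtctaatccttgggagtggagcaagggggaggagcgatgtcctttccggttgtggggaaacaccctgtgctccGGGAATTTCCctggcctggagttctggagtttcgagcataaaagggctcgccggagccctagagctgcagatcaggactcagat
Cxcl10: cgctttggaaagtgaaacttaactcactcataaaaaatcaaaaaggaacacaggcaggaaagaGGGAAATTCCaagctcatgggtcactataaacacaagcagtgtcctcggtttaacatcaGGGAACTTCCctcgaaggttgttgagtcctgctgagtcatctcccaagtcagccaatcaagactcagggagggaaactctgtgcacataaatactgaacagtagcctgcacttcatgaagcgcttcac
Cxcl11: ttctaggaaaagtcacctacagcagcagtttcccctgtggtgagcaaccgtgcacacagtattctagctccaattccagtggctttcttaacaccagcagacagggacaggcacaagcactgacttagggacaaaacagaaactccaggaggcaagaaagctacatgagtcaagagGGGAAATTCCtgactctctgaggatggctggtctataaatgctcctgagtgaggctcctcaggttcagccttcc

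Markers of macrophages were higher, and those neutrophil and lymphocyte markers that could be tested are described after them. For macrophages, 23 of 24 tested markers rose with a median of 2.21. For this and all later lists, the shares of all tested genes called were 25.1% higher and 26.5% lower. Cd14, a coreceptor for bacterial lipopolysaccharide, was at 11.1, 17.0, 35.8 and 14.6 in Sham and at 139, 367 and 217 in SNL plus UNC0638 (log2 fold change 3.57, SE 0.40, adjusted p = 0.000105). Fcgr3a, an antibody receptor, was at 12.5, 9.09, 18.7 and 8.45 and at 170.4, 359 and 309.6 (log2 fold change 4.41, SE 0.35, adjusted p = 2.71e-05). Ptprc, the pan-leukocyte gene of CD45, went from 134 ± 39.3 to 1007 ± 385 (SD, n = 4 and 3, log2 fold change 2.87, SE 0.31, adjusted p = 0.000102). In none of the 3 genes did the groups overlap, and Sham replicate 3 was the highest Sham library for each. Fewer than 3 Sham libraries reached 10 for Fcgr3a, so that it entered the test only with the treated libraries and its p-value is not free of the filter. For neutrophils, 7 of 8 tested markers (17 in the table, 2 of the 8 under 10 in every Sham library) rose with a median of 2.99, and Csf3r, the receptor for the granulocyte growth factor, was at 16.7, 18.2, 34.3 and 13.8 and at 363, 521 and 476 (log2 fold change 4.45, SE 0.29, adjusted p = 2.29e-05). Markers of T, NK and B cells rose in all 12 tested members (21 in the table, 7 of the 12 under 10 in every Sham library, so that this count supports nothing). Cd8a, a marker of cytotoxic T cells, was at 2.78, 1.14, 0 and 3.07 and at 31.4, 49.5 and 67.1, and is one of the 7, with no test given. With replicate 1 of the treated group left out, 23 macrophage, 6 neutrophil, 12 lymphocyte and 15 innate cytokine genes rose. The members were chosen by the same filter as before, so that the lymphocyte and innate cytokine counts again support nothing. The neutrophil count carries the filter in part.

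**Figure D2:**
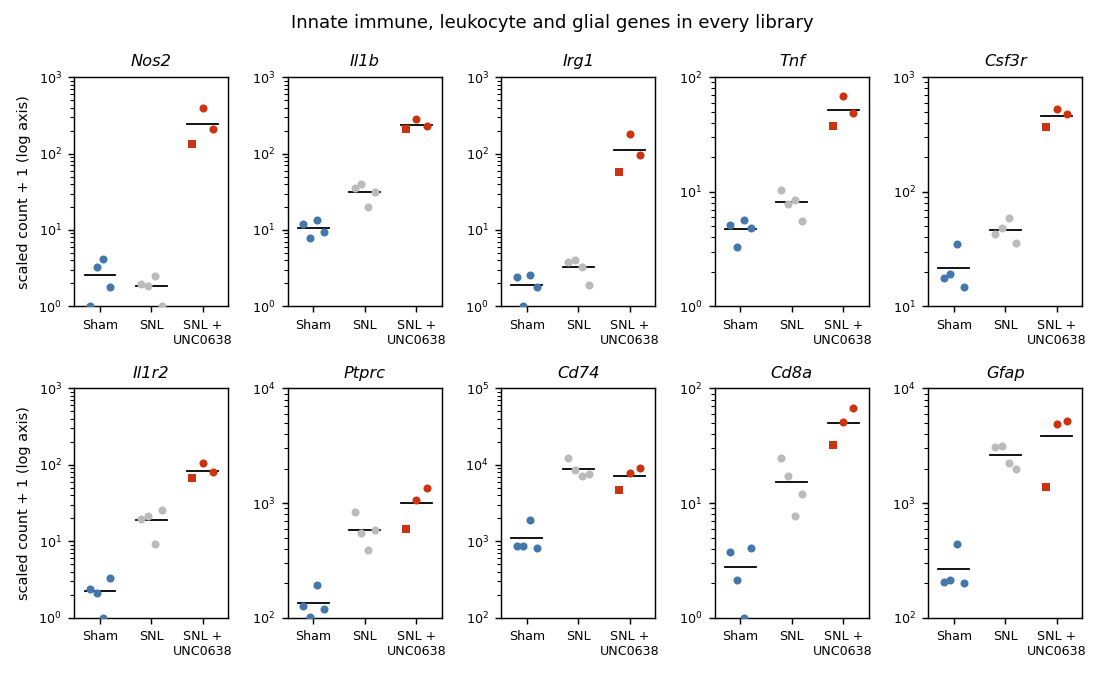
Scaled count + 1 (log axis) of 10 immune and glial genes in each library of Sham, SNL and SNL plus UNC0638; horizontal lines are group means, and the square marks SNL plus UNC0638 replicate 1. For Nos2, Il1b, Irg1 and Tnf all 3 SNL plus UNC0638 libraries lie above every SNL library.

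Genes of antigen presentation and of complement were higher too. All 9 tested genes of MHC class II presentation rose (median 2.73), among them Cd74, the invariant chain gene, at 868, 876, 1885 and 813 in Sham and 4683, 7777 and 9018 in SNL plus UNC0638 (log2 fold change 2.73, SE 0.32, adjusted p = 0.000126), and Ciita, the master regulator of these genes, at 34.8, 23.9, 98.2 and 25.4 and 381, 494 and 597 (log2 fold change 3.63, SE 0.40, adjusted p = 0.000104). With the library term, 7 of the 9 rose. In SNL the values of Cd74 were 7056 to 12390.3, overlapping those with UNC0638. Of 17 tested complement genes, 15 rose (median 2.35), including Cfb, of the alternative pathway, at 82.1, 92.0, 323 and 53.8 and 794, 1751 and 1699 (log2 fold change 3.62, SE 0.51, adjusted p = 0.000291). The 2 called lower were Cd55 and Cd59, which encode membrane inhibitors of complement and were named after their values were seen. Of 29 interferon response genes, 15 rose and 1, Ifi27, fell (median 0.74), with Irf1, an interferon-responsive transcription factor gene, at 242, 160.2, 210.4 and 198 and 604, 1603 and 1159.7 (log2 fold change 2.37, SE 0.27, adjusted p = 0.000126). The share of the list called was 55.2%, close to the 51.6% of all genes.

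Injury genes of sensory neurons were higher on average, but in 2 of the 3 libraries far more than in replicate 1. Atf3, the transcription factor that marks injured neurons, was at 167, 160.2, 175 and 178 in Sham and at 265, 1802 and 2393 in SNL plus UNC0638 (log2 fold change 2.62, SE 0.56, adjusted p = 0.00267), a log2 change of 3.61 (adjusted p = 2.83e-06) without replicate 1, and at 4914 to 7460.0 after ligation alone. The peptide genes Npy and Vip, which injured sensory neurons switch on, were at 12.5, 13.6, 14.0 and 14.6 and 6.96, 3.41, 4.67 and 14.6 in Sham. In SNL plus UNC0638 they were at 20.6, 908 and 1624 and at 8.07, 476 and 1032. Replicate 1 lay close to the Sham range for both, and the SNL libraries lay at 3043 to 5692 for Npy and 2215 to 3884 for Vip. The log2 fold change was 4.43 for Npy (adjusted p = 0.0055) and 4.46 for Vip (adjusted p = 0.00946), and without replicate 1 6.37 (adjusted p = 1.45e-06) and 6.56 (adjusted p = 1.67e-05). Both calls were lost in limma-voom (log2 fold change 4.36 and adjusted p = 0.0983 for Npy, 4.21 and 0.154 for Vip), with folds about as large. Fewer than 3 Sham libraries reached 10 for Vip, which entered the test only with treated libraries. Of 7 tested injury-induced neuropeptide genes (10 in the table), 3 rose and 1, Nmb, fell by 1.57 (median 0.18). The share called was 57.1%, against 51.6% of all genes. Crh, at -2.38, did not pass (adjusted p = 0.0745). Without replicate 1, 3 rose and 2 fell. Of 29 tested regeneration effector genes, 9 rose and 1, Hspb1, fell (34.5% called against 51.6% of all genes). Without replicate 1, 16 rose and 2 fell. The muscle gene levels of that replicate, given above, moved with this difference, and their part was not tested. Sprr1a was not among the genes tested.

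Early response genes were higher in all 3 treated libraries. Of 20 tested immediate early genes, 17 rose (median 1.40, 85.0% called, against 25.1% of all genes called higher). Fos was at 59.8, 59.1, 108 and 65.3 in Sham and 241, 568 and 415 in SNL plus UNC0638 (log2 fold change 2.43, SE 0.32, adjusted p = 0.000211), and Junb at 221, 251, 362 and 237 and 794, 1709.5 and 1011 (log2 fold change 2.08, SE 0.25, adjusted p = 0.000153). Both encode parts of the transcription factor AP-1, and for neither did the groups overlap. Cebpb, a transcription factor gene of inflammation and of injured neurons, was at 66.8, 75.0, 132 and 68.4 and 284, 450.2 and 321 (log2 fold change 2.06, SE 0.26, adjusted p = 0.00017).

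**Figure D3:**
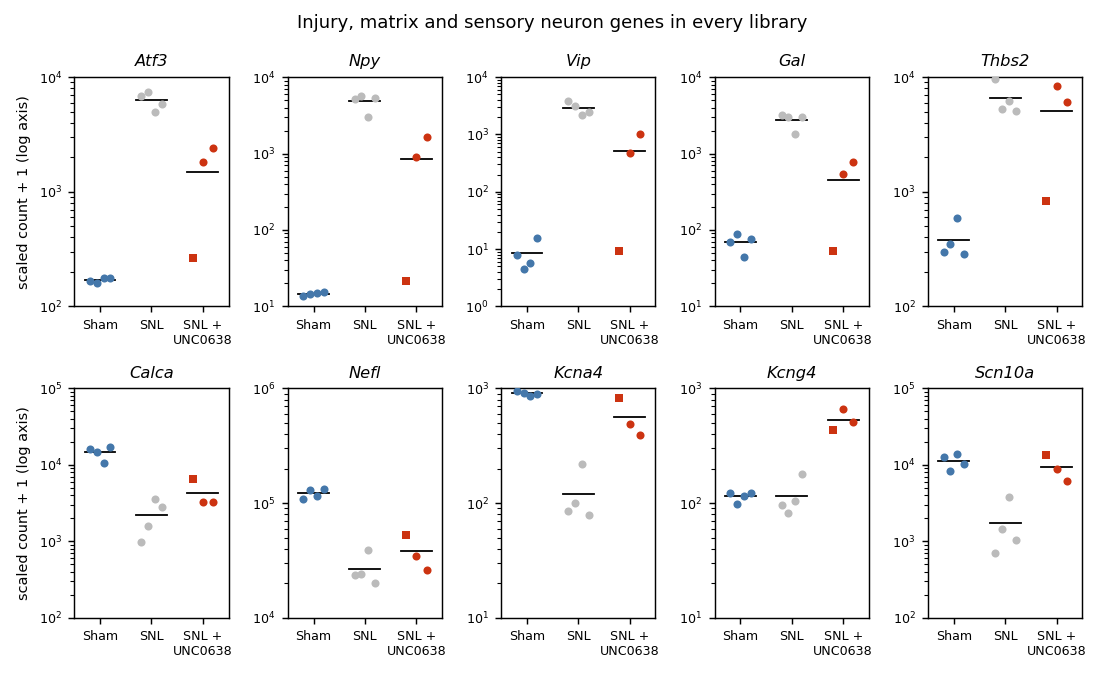
Scaled count + 1 (log axis) of 10 injury, matrix and sensory neuron genes in each library of the 3 groups, with lines at group means and a square for SNL plus UNC0638 replicate 1. Atf3, Npy, Vip, Gal and Thbs2 lie nearer to Sham in that replicate than in replicates 2 and 3, while Kcng4 is above Sham in all 3.

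Markers of sensory neurons in general fell. Of 11 such genes, 9 fell (81.8% called, median -0.73), and the count was the same without replicate 1 and with the library term. Uchl1, a neuronal ubiquitin hydrolase gene, was at 27673, 33043, 25155 and 30195 in Sham and at 15059.5, 11639 and 9879 in SNL plus UNC0638 (log2 fold change -1.27, SE 0.16, adjusted p = 0.000167). Tubb3, the neuronal tubulin gene, was at 54662, 56681, 47478 and 63866 and 33482, 31419.6 and 35179 (log2 fold change -0.73, SE 0.14, adjusted p = 0.00149), and at 67824 to 92460.1 after ligation alone. The 3 SNL plus UNC0638 libraries were below all Sham libraries for both genes. Nefl, the light neurofilament gene, fell from 121309 ± 11559 to 37845 ± 13779 (SD, n = 4 and 3, log2 fold change -1.74, SE 0.25, adjusted p = 0.000336).

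Nociceptor genes were lower in part. Of 13 peptidergic nociceptor markers, 7 fell (53.8% called, against 26.5% of all genes called lower; median -0.72). Calca, the gene of the pain peptide CGRP, was at 15928, 14777, 10459 and 17092 in Sham and at 6440.5, 3308 and 3255 in SNL plus UNC0638 (log2 fold change -1.80, SE 0.40, adjusted p = 0.00318). Tac1, the substance P gene, was at 4999.9, 4377, 2794 and 4733 and 2390.2, 1222 and 1267 (log2 fold change -1.41, SE 0.26, adjusted p = 0.0011). In both, replicate 1 was the highest of its group and still below every Sham library. Scn10a, the sodium channel gene Nav1.8 of nociceptors, was at 12836, 8382, 13710.5 and 10121 and 13555, 8818 and 6206 and did not pass (log2 fold change -0.29, SE 0.47, adjusted p = 0.626), with 693 to 3806 after ligation alone. Of 18 markers of non-peptidergic and itch neurons, 1 rose and 4 fell (27.8% called against 51.6% of all genes). Without replicate 1, 1 rose and 7 fell. With the library term, 1 rose and 2 fell. Markers of large-diameter touch and position neurons fell in 5 of 18 (27.8%, near the 26.5% of all genes called lower). With the library term, 12 fell, and without Sham replicate 3, 2 rose and 6 fell.

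Potassium channel genes, whose subunits hold neurons near rest and end action potentials, moved in both directions. Of 76 tested genes with symbols beginning Kcn (90 in the table), 13 rose and 14 fell, 35.5% called against 51.6% of all genes, with a median of -0.22. Without SNL plus UNC0638 replicate 1, 12 rose and 19 fell (median -0.51), with the library term 7 and 34 (median -0.75), and with limma-voom 13 and 9. Kcng4, a silent modifier subunit, was at 121, 96.6, 114 and 122 in Sham, at 431, 658 and 506 in SNL plus UNC0638 and at 80.6 to 177 after ligation alone (log2 fold change 2.20, SE 0.24, adjusted p = 0.000102). Kcnip1 and Kcnab1, auxiliary subunits of A-type and Kv1 channels, fell by 0.96 (adjusted p = 0.00191) and 1.35 (adjusted p = 0.00205) on the log2 scale.

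The A-type channel gene Kcna4 was at 949, 919, 863 and 895 in Sham and at 817, 484 and 388 in SNL plus UNC0638, and did not pass (log2 fold change -0.76, SE 0.33, adjusted p = 0.0705). Without replicate 1, the only one near the Sham range, its change was -1.06 (adjusted p = 0.0206), and with the library term -1.22 (adjusted p = 0.0185). Its SNL values were 77.5 to 217. Kcnd2, another A-type channel gene, was at 45.9, 43.2, 59.2 and 30.0 and 32.3, 23.2 and 19.3 (log2 fold change -0.80, SE 0.40, adjusted p = 0.113), and did not pass. Neither did Kcnma1, the large-conductance calcium-activated channel gene, at 835, 649, 941 and 649 and 914, 560.0 and 570.2 (log2 fold change -0.19, SE 0.29, adjusted p = 0.601). Their SNL values were 4.70 to 15.8 and 220.1 to 505.

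Among 14 sodium channel genes, 2 rose and 5 fell, 50.0% called, near the 51.6% of all genes. Scn1a, a channel of large neurons, was at 5522, 6199.6, 5644 and 5754 in Sham and 3931, 2177 and 2196 in SNL plus UNC0638 (log2 fold change -1.12, SE 0.31, adjusted p = 0.0105), and Scn3a, an embryonic form that returns after injury, at 16.7, 14.8, 26.5 and 13.8 and 24.2, 63.4 and 56.8 (log2 fold change 1.31, SE 0.34, adjusted p = 0.0073). Of the calcium channel genes 4 rose and 2 fell among 21 tested (higher Cacna1c, Cacna1d, Cacna1e and Cacna2d1, lower Cacna2d3 and Cacnb3), 28.6% called. The counts higher and lower were 2 and 2 without SNL plus UNC0638 replicate 1, 8 and 2 without Sham replicate 3 and 1 and 5 with the library term, where the calls of Cacna1c and Cacna1d, pore subunits of the L type, were lost. Cacna1c was at 945, 668, 1195 and 738 and 1599, 1371 and 1409.9, with Sham replicate 3 nearest to the treated libraries. Among 28 TRP, acid-sensing, purinergic and pacemaker channel genes, with no Piezo gene among them, 5 rose and 3 fell (28.6% called). Lower calls numbered 6 without SNL plus UNC0638 replicate 1, 5 without Sham replicate 3 and 8 with the library term. P2rx7, an ATP receptor of macrophages and glia, was at 173, 159, 219.7 and 141 and 463, 1084 and 977 (log2 fold change 2.20, SE 0.27, adjusted p = 0.000153). The receptor genes of GABA-A and ionotropic glutamate signalling split into 7 higher and 7 lower of 24 (58.3% called against 51.6% of all genes). The counts were 5 and 10 without SNL plus UNC0638 replicate 1, 7 and 4 without Sham replicate 3 and 4 and 10 with the library term. Grik2, a kainate receptor subunit, was at 341, 326, 329 and 348 and 779, 1066 and 1253 (log2 fold change 1.59, SE 0.15, adjusted p = 5.7e-05).

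Few inhibitory receptor genes passed the test. Of 27 inhibitory G protein-coupled receptor genes, 3 fell (Oprl1, Adora1 and Adra2c), 11.1% of the list; without replicate 1, 8 fell, and with the library term 12. Adora1, an adenosine receptor gene, was at 267, 216, 248 and 309 in Sham and at 175, 89.7 and 99.3 in SNL plus UNC0638 (log2 fold change -1.15, SE 0.26, adjusted p = 0.00396). The mu-opioid receptor gene Oprm1 was at 339, 333, 441 and 326 and 476, 286 and 313 (log2 fold change -0.03, SE 0.38, adjusted p = 0.955), so that the groups overlapped, and at 38.6 to 152 after ligation alone. Cnr1, the cannabinoid receptor gene, was at 637, 720.3, 647 and 572 and 509, 265 and 410.2 (log2 fold change -0.75, SE 0.30, adjusted p = 0.051), and passed without replicate 1 at -0.96 (adjusted p = 0.0286). Of 25 genes of synaptic vesicles and release, 9 fell (36.0% called), among them Snap25, a fusion protein gene, at 14322, 17131, 16595 and 14536 and 9687, 5091 and 5297 (log2 fold change -1.29, SE 0.28, adjusted p = 0.0029); with the library term 16 fell.

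Glial genes moved in opposite directions. Gfap, the intermediate filament gene of reactive glia, was at 205, 211, 443 and 199.8 in Sham and at 1387, 4918 and 5170.2 in SNL plus UNC0638 (log2 fold change 3.72, SE 0.43, adjusted p = 0.000123), and at 1999 to 3123 after ligation alone. S100b, a calcium-binding protein gene of glia, was at 11302, 14784, 11329.6 and 12729 and 6060.2, 3801 and 3912 (log2 fold change -1.47, SE 0.20, adjusted p = 0.000244), and Fabp7, a fatty acid binding protein gene of satellite glia, went from 456 ± 179 to 128 ± 58.7 (SD, n = 4 and 3, log2 fold change -1.80, SE 0.36, adjusted p = 0.00173). No library of one group reached the range of the other for these 3 genes. Of 13 satellite glia genes, 4 rose (Gja1, Cdh19, Gfap and Cadm2) and 2 fell (S100b and Fabp7), and of 20 genes of peripheral myelin, 6 rose and 3 fell, 46.2% and 45.0% called against 51.6% of all genes. The counts higher and lower were 3 and 3 and 6 and 5 without Sham replicate 3, and 2 and 2 and 3 and 2 with the library term. Hes5, a Notch target gene of glia, had the lowest log2 fold change of the named genes, at 86.3, 89.8, 43.6 and 83.0 and 13.5, 12.4 and 1.29 (log2 fold change -3.28, SE 0.61, adjusted p = 0.00124). Of 9 tested Schwann cell repair genes, 2 rose (22.2%).

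Most connective tissue and vessel genes were higher. Of 19 fibroblast and collagen genes, 14 rose (median 1.32), including Fn1, the fibronectin gene, at 1967, 1876, 3109 and 1593 in Sham and 5153, 19535 and 14235 in SNL plus UNC0638 (log2 fold change 2.45, SE 0.46, adjusted p = 0.00137), and Thbs2, a matrix thrombospondin gene, at 296, 349.9, 587 and 284 and 822, 8374 and 6067 (log2 fold change 3.26, SE 0.63, adjusted p = 0.00151). In both, replicate 1 was the lowest of its group by a wide margin. Vessel genes rose in 15 of 17: Flt1, a VEGF receptor gene of endothelium, was at 292, 244, 294 and 231 and 563, 503 and 537 (log2 fold change 1.01, SE 0.12, adjusted p = 0.000151), and Abcc9, of pericytes, at 76.5, 80.7, 99.7 and 63.8 and 288, 292 and 250.3 (log2 fold change 1.79, SE 0.18, adjusted p = 7.16e-05). Of 25 cell cycle genes, 13 rose and 1 fell (56.0% called, near the 51.6% of all genes), with Mki67, a marker of dividing cells, at 113, 77.3, 106 and 86.1 and 271, 362 and 489 (log2 fold change 1.93, SE 0.22, adjusted p = 0.00011). Of 20 histone genes tied to DNA replication, 7 rose and 2 fell (45.0% called); transcripts of these genes mostly lack poly(A) tails, and the libraries were made from total RNA.

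**Figure D4:**
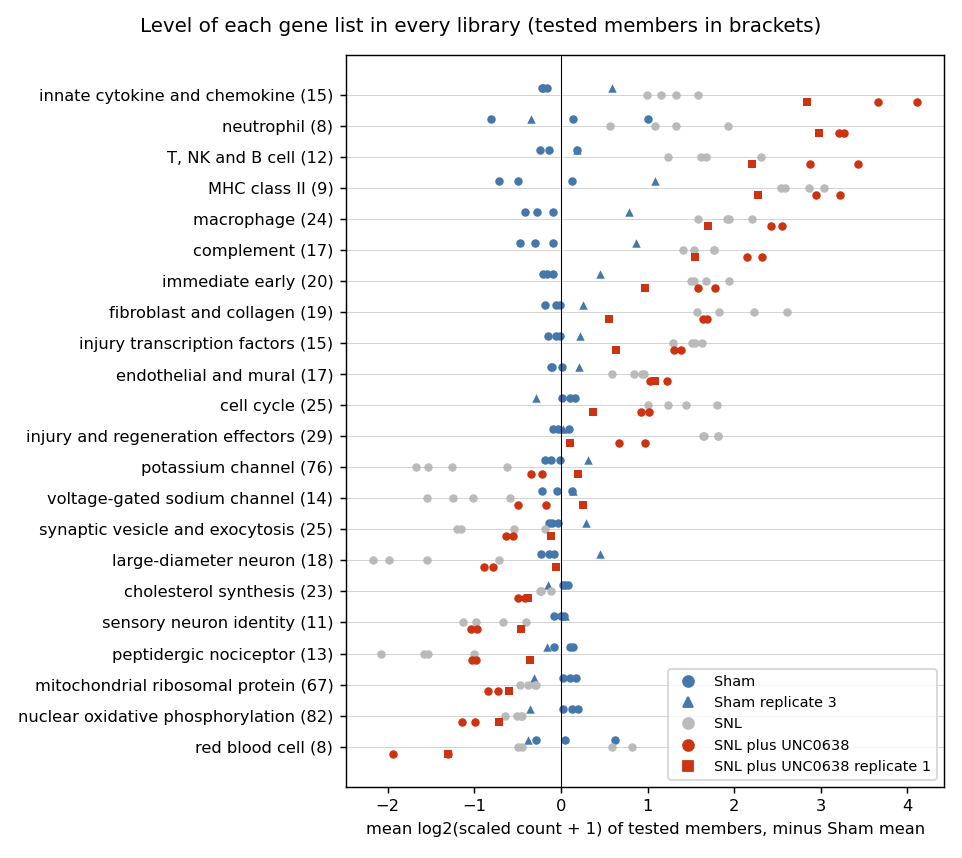
Mean log2(scaled count + 1) of the tested members of gene lists, minus the Sham mean, in each library of the 3 groups; triangles mark Sham replicate 3 and squares SNL plus UNC0638 replicate 1. Among the lists drawn, the innate cytokine list has the highest mean over the SNL plus UNC0638 libraries and the red blood cell list the lowest. In the innate cytokine list 7 of 15 tested members, and in the T, NK and B cell list 7 of 12, were under 10 in every Sham library. These members entered only through the treated group, so that the high levels of both lists were set in part by the filter.

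Nuclear genes of oxidative phosphorylation were lower almost throughout. Of 82 tested genes, 76 fell (92.7% called, median -0.96), against 26.5% of all genes called lower. Ndufb7, of respiratory complex I, was at 857, 933, 798 and 1129.8 in Sham and at 206, 155 and 107 in SNL plus UNC0638 (log2 fold change -2.60, SE 0.20, adjusted p = 2.71e-05), with 449 to 571 after ligation alone. Atp5b, the catalytic subunit gene of ATP synthase, was at 23284, 24663, 18129.5 and 23908 and 11649.5, 8724 and 8505 (log2 fold change -1.23, SE 0.15, adjusted p = 0.000153). Ndufa8, also of complex I, was at 996, 947, 704 and 1008 and 411, 354 and 275 (log2 fold change -1.40, SE 0.16, adjusted p = 0.000112). For each of these genes, every SNL plus UNC0638 library was below every Sham library. Counts were 77 lower without replicate 1, 68 with the library term and 70 with limma-voom. The level of this list in Sham replicate 3 (-0.36) moved with those of macrophage and class II genes there, and their part in the result was not tested. Cox17, a copper chaperone gene of complex IV, fell by 2.31 on the log2 scale (adjusted p = 0.000281).

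Mitochondrial ribosome genes went the same way: 60 of 67 fell (89.6%, median -0.69), 39 with the library term and 38 with limma-voom. Mrps23 was at 632, 706, 583 and 717 in Sham and 301, 266 and 263 in SNL plus UNC0638 (log2 fold change -1.25, SE 0.11, adjusted p = 4.24e-05), with a narrow spread in both groups.

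A pair of promoters of oxidative phosphorylation genes is shown because they hold a motif of the ETS family, to which GABP, a known regulator of mitochondrial genes, belongs. The letters CCGGAAG were searched on both strands (reverse CTTCCGG) in the same 250 bases. They were found in 16 of the 53 oxidative phosphorylation genes called lower with a promoter (30.2%) and in 7 of 48 mitochondrial ribosome genes (14.6%), against 14.1% of tested genes with a promoter and 7.74% of all promoters. For the ribosome genes this share is near that of tested genes. Both are printed 5′ to 3′ with the motif in capitals (Ndufb7, chr19:41477292-41477541, minus strand, and Ndufs1, a further complex I gene, chr9:72073606-72073855, minus strand, both GRCr8).
Ndufb7: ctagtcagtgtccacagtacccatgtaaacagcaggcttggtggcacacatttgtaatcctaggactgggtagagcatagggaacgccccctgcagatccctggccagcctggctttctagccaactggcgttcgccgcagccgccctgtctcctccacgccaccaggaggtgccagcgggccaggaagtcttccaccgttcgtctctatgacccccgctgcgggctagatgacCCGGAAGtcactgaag
Ndufs1: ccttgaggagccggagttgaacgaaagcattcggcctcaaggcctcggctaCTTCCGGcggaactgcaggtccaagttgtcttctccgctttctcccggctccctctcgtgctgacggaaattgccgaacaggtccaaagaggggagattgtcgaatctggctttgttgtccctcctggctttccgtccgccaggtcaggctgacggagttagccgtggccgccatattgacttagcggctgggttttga

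**Figure D5:**
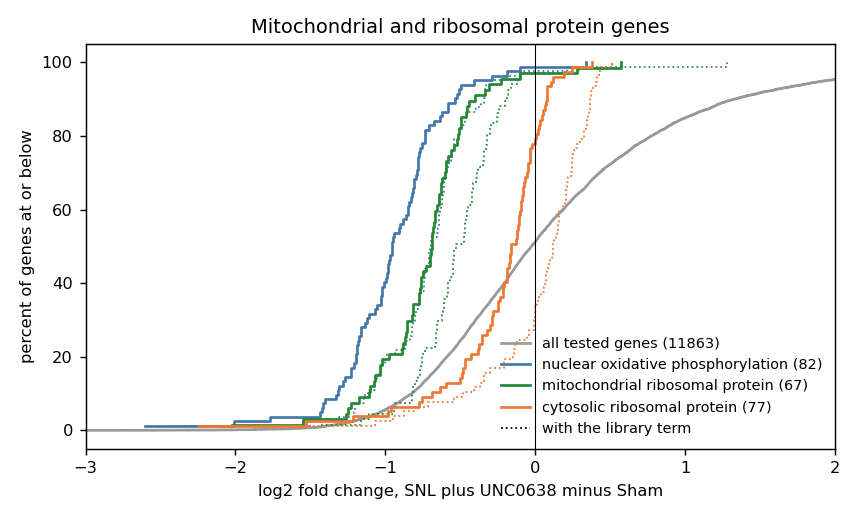
Cumulative percent of genes (vertical axis) at or below each log2 fold change of SNL plus UNC0638 minus Sham (horizontal axis), for 3 gene lists and all 11863 tested genes; dotted lines are from the fit with a library term. Of the oxidative phosphorylation members 76 of 82 were called lower and of the mitochondrial ribosome members 60 of 67, while the curve of cytosolic ribosomal genes has a median of -0.16, and 0.12 with the library term.

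Most genes of the cytosolic ribosome did not pass. Of 77 tested genes, 1, Rpl18, rose and 14 fell (19.5% called against 51.6% of all genes). Without Sham replicate 3, 23 fell, and the median turned to 0.12 with the library term and 0.03 with limma-voom. Rps16, whose gene family has many processed pseudogenes so that reads may be shared, was at 917, 1159, 1278 and 1755 in Sham and 296, 255 and 239 in SNL plus UNC0638 (log2 fold change -2.24, SE 0.27, adjusted p = 0.000141). Of 23 cholesterol synthesis genes, 12 fell and 0 rose (52.2% called), and 7 fell with the library term. All tested genes were called either way in 51.6% and lower in 26.5%. Hmgcs1, an early enzyme gene of the pathway, was at 17665, 18910.1, 12316 and 16876 and 9843, 8381 and 9525 (log2 fold change -0.81, SE 0.15, adjusted p = 0.00117). Chaperone genes fell in 17 of 24 and rose in 2 (79.2% called against 51.6% of all genes). Those with the smallest p-values included Hspd1 and Hspe1, a chaperonin pair of the mitochondrial matrix, which fell by 0.88 (adjusted p = 0.000328) and 1.48 (adjusted p = 0.000223) on the log2 scale.

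Red blood cell genes were lower: 6 of 8 tested members fell (median -1.70), 3 with the library term, against 26.5% of all genes called lower in the main fit. Hba1, an alpha globin gene, was at 309, 189.7, 156 and 275 in Sham, 59.2, 40.2 and 21.9 in SNL plus UNC0638 and 144 to 440.2 after ligation alone (log2 fold change -2.55, SE 0.42, adjusted p = 0.000621). The near-identical globin genes may share reads. Lsm4, of the spliceosomal and decay complexes, was among the 12 genes of smallest p and fell from 657, 804, 589 and 692 to 219.7, 203 and 156 (log2 fold change -1.83, SE 0.15, adjusted p = 2.71e-05).

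The enzymes that UNC0638 inhibits were not lower in RNA. Ehmt1 was at 416, 416, 497 and 436 in Sham and at 585, 687 and 644 in SNL plus UNC0638 (log2 fold change 0.53, SE 0.11, adjusted p = 0.00188). Ehmt2 was at 786, 699, 1086 and 768 and 1041, 1555 and 1116 (log2 fold change 0.57, SE 0.17, adjusted p = 0.0165), with Sham replicate 3 inside the treated range and a value of 0.30 (adjusted p = 0.187) with the library term. Of 17 genes for H3K9 methylation, its removal and its reading, 9 rose and 3 fell (70.6% called against 51.6% of all genes), and with the library term 6 rose and 1 fell. Kdm4a, a demethylase gene for this mark, was at 908, 828, 966 and 875 and 1219, 1846 and 1525 (log2 fold change 0.76, SE 0.14, adjusted p = 0.00101). Of 20 polycomb, DNA methylation and deacetylase genes, 7 rose and 3 fell (50.0% called, near the 51.6% of all genes), and with the library term 6 rose and 2 fell. Ezh2, the polycomb methyltransferase gene that dividing cells also express, was at 47.3, 48.9, 59.2 and 58.4 and 127, 178 and 264 (log2 fold change 1.75, SE 0.22, adjusted p = 0.00016). Of 4 tested germline genes (17 in the table), 1 rose and 2 fell. Piwil1, a germline Piwi gene, was at 2.78, 10.2, 7.79 and 3.07 and 49.3, 75.8 and 46.4 (log2 fold change 3.19, SE 0.43, adjusted p = 0.000226), while Piwil2 fell by 1.52 (adjusted p = 0.00452). Fewer than 3 Sham libraries reached 10 for Piwil1, which entered the test only with the treated libraries. Its p-value is therefore not free of the filter.

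Clock genes were higher in 7 and lower in 1 of 16 tested (50.0%, near the 51.6% of all genes). Per2, a clock repressor gene, was at 65.4, 71.6, 249 and 53.8 in Sham and 587, 743 and 655 in SNL plus UNC0638 (log2 fold change 2.87, SE 0.51, adjusted p = 0.000921). Sham replicate 3 was well above the other Sham libraries and below every treated one.

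Among the 12 genes of smallest p were several without a list. LOC100362110 was at 4068, 3719.5, 6275 and 2981 in Sham and 46015, 41488 and 56574 in SNL plus UNC0638 (log2 fold change 3.54, SE 0.27, adjusted p = 2.71e-05), which made up 0.438% to 0.599% of a treated library against 0.0274% to 0.0553% of a Sham library, and LOC100361645 rose alongside by 3.50 (adjusted p = 2.71e-05). The symbols alone do not say what these genes are. Leng8 was at 458, 431, 606 and 368 and 2702, 3299.9 and 3008 (log2 fold change 2.71, SE 0.21, adjusted p = 2.71e-05), with 613 to 1143 after ligation alone. Agbl4, a tubulin deglutamylase gene, was at 19.5, 20.4, 29.6 and 18.4 and 224, 149 and 246 (log2 fold change 3.16, SE 0.25, adjusted p = 2.71e-05), with 20.1 to 29.2 after ligation alone. For all of these genes the SNL plus UNC0638 libraries, replicate 1 included, were clear of Sham.

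Genes typical of tissues outside the ganglion were counted as well. Of 14 tested muscle genes, 3 were called higher (median 2.36); without SNL plus UNC0638 replicate 1, 3 were higher and 2 lower (median 0.02). Tnnt3, a muscle troponin gene, was at 15.3, 19.3, 14.0 and 14.6 in Sham and 3308, 77.4 and 58.0 in SNL plus UNC0638 (log2 fold change 3.89, SE 1.06, adjusted p = 0.00987), 2.03 (adjusted p = 0.00115) without replicate 1. The summed value of the muscle list was 1493 to 2313 in Sham, 97664 in SNL plus UNC0638 replicate 1 and 1255 and 1041 in replicates 2 and 3. Central glial and spinal cord markers summed to 218 to 382 in Sham and 227 to 278 in SNL plus UNC0638, with 1 of 9 called higher, and 1 higher and 2 lower without SNL plus UNC0638 replicate 1. Of 3 tested adipocyte and skin genes, 2 rose, and one of them, Cfd, is also in the complement list.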

How the data were processed

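Total RNA of dorsal root ganglia was extracted with Trizol or RNeasy, with the assignment to samples not given in the sources used here, and sequenced as stranded total RNA libraries after ribosomal RNA removal, in single-end reads of 50 bases, per the labels. Per the submitters' processing notes, TopHat2 2.0.9 and Cuffdiff 2.1.1 were used with the rat build rn4. For the annotation counted and its strand setting: not given in the sources used here. Values as deposited are a signal: gene counts that the authors had scaled with 1 factor per library. In the 7 libraries 99.2% to 99.4% of low values were whole multiples of a step, within 0.05 steps, taken as 1 read.

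A count test had been planned if the values were raw counts; as they were not, the alternative written with it was used. limma 3.58.1 (R 4.3.3, statmod 1.5.0) was fitted to log2(value + 1) over all 11 libraries with 1 mean per group, with eBayes (trend, robust) and two-sided tests. Simulated data with the gene spreads of these libraries (11863 genes) had 100 genes with a log2 change of 1, 100 with 2 and 11663 unchanged. There, 55% of log2 changes of 1 and 90% of log2 changes of 2 were called, and 0.0857% of unchanged genes, which made up 6.45% of the calls. Far fewer genes were changed there than the 6122 called here, so that these shares may not hold for this comparison. The members and the 42 gene lists were chosen with earlier results of these data known. Named genes were the 12 highest and 12 lowest called log2 fold changes with a mean of at least 20 and no overlap, the 12 called genes of smallest p, in each list the 4 called members of smallest p (or the 2 most abundant where none was called), and a fixed set that includes Ehmt1, Ehmt2, Atf3, Kcna4 and Oprm1. Not all of the 187 are printed, and a few members of lists are left unreported; members outside this rule that are named beside a count of 5 or fewer, Acta1 and the promoter genes were chosen after their values were seen. Alternatives were other scalings, filters, pseudocounts, thresholds, sample sets, limma-voom, a replicate block, the library term and leaving out each library; leaving out Sham replicate 3 and SNL plus UNC0638 replicate 1 together was chosen after seeing the data. Promoter sequences are from RefSeq (GRCr8) and were matched by symbol. The table has 24 names altered to dates.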

Additional observations from a re-analysis of the deposited data

Results flagged for a closer look

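In the 4 Sham libraries, 24 of 194 genes examined had a library whose distance from its nearest neighbour was large against the range of the group (Dixon's 95% limit), and 20 of these were set apart by Sham replicate 3. Chance flags about 1 in 20 groups. Sham replicate 3 was high for C6 (67.0), Cacna1d (227), Cd74 (1885), Cebpb (132), Cfb (323), Ciita (98.2), Col7a1 (18.7), Csf1 (357), Dhrs9 (14.0), Fos (108), Gfap (443), Itgam (132), Kdm6b (376), Myc (108), Oprm1 (441), Per2 (249), Phf2 (494) and RT1-Da (807), all in scaled counts. It was low for Hes5 (43.6) and Nmb (690.3). The other 4 were Cd8b (1.39), Cxcl11 (9.74) and Scn2a1 (207) in Sham replicate 1 and Isl1 (581) in Sham replicate 2. Of 42 gene lists, 2 were set apart in the same way, both by Sham replicate 3: innate cytokines and chemokines, with a mean log2 level 0.59 above the Sham mean, and immediate early genes, 0.45 above it. Apart from Oprm1, whose groups overlapped, the direction of difference from SNL plus UNC0638 in these genes was the same without that library.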

How the results depend on the processing

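The 6122 calls (2983 higher, 3139 lower) fell to 3753 (1698 lower) when limma's treat was set against a 1.2-fold change, and the lower calls to 2056 at an adjusted p under 0.01. Limma-voom on estimated reads called 1852 genes lower and 270 at least 2-fold lower, with 66.6% of its calls higher, against 48.7%. It moved the median log2 fold change of all genes from -0.03 to 0.16. With voom, the calls of Npy, Vip and Gal were lost (adjusted p = 0.0983, 0.154 and 0.0848), with log2 fold changes of 4.36, 4.21 and 2.02, about as large as before. Leaving out each library in turn gave 4630 to 6879 calls, 2293 to 3421 higher, 2337 to 3458 lower, 1435 to 1987 at least 2-fold higher and 385 (without SNL plus UNC0638 replicate 2) to 979 (without replicate 1) at least 2-fold lower. Without Sham replicate 3 and SNL plus UNC0638 replicate 1 together, a choice made after seeing the data, 1190 were at least 2-fold lower. Other scalings, filters, pseudocounts and fits kept the counts within 1.5 times, and no called gene of the 187 named changed direction in any alternative run; Oprm1 and Kcnma1, which were not called, changed sign in some. With the replicate number as a block, 5351 genes were called (2670 higher, 2681 lower, 1649 and 567 of them at least 2-fold); potassium channel genes then gave 11 higher and 8 lower. Deviations of same-numbered libraries correlated at 0.013, -0.26 and -0.12 across genes, and those of differently numbered libraries at -0.10 to 0.27. So few libraries cannot show whether the numbers mark a pairing. The edgeR and DESeq2 alternatives were not run, since the deposited values are not counts. At this depth 4948 genes, nearly all below the minimum value of 10 in 5 or more of the 7 libraries, were not tested.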
